A study of Danio rerio with 6 samples.

Results

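Hox genes were described in the trunks of zebrafish (Danio rerio) embryos that had lost the quaking genes qkia and qkic. Members were the rows of the gene tables whose symbol was hox, a cluster letter a to d, a number 1 to 13 and an optional copy letter, in either case. They numbered 38 of the 24789 genes measured, 5 in cluster A, 15 in cluster B, 11 in cluster C and 7 in cluster D. The table of gene names paired 48 Ensembl IDs with a Hox symbol, and the other 10, 6 of them in cluster A, were not analysed here. Symbols in capitals are human names given to zebrafish IDs. For HOXA11 (ENSDARG00000007009), HOXC6 (ENSDARG00000070343), HOXC12 (ENSDARG00000070352) and HOXC13 (ENSDARG00000070353) the names do not say which of the a and b copies was counted. The 3 loss of function libraries came from qkia-/- embryos injected with a qkic morpholino, an antisense oligonucleotide that blocks a chosen transcript. The 3 control libraries came from their qkia+/+ or qkia+/- siblings injected with a control morpholino, so genotype and morpholino changed together and some controls may carry 1 mutant allele. All embryos received 0.6 pmol of morpholino and were collected 24 to 26 h after fertilization, when the groups were told apart by morphology, and the head and yolk were cut away. Quaking proteins are RNA-binding regulators of mRNA processing, and the comparison was made to find genes that depend on them.

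Hox genes encode homeodomain transcription factors that give cells their position along the head-to-tail axis. They lie in clusters, and the order of genes in a cluster matches the order of their domains, so that genes with low paralogue numbers start in the hindbrain and those with high numbers in the posterior trunk and tail. Zebrafish carry extra clusters from a whole-genome duplication, which left copies marked a and b. Hox proteins bind DNA together with cofactors of the Pbx and Meis families, and retinoic acid, Fgf and Cdx proteins set where the genes are switched on.

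The values are normalized read counts, which are reads per gene divided by 1 size factor per library. The gene tables summed to between 38804265 and 44799398 counted reads per library, more than the mean of 27459238 reads per sample that the labels state. No source used here explains the gap, or says whether a read could be counted for more than 1 gene. The mutated gene qkia (ENSDARG00000097478) had 5.98, 6.93 and 3.34 normalized reads in loss of function replicates 1, 2 and 3, against 61.7, 81.9 and 58.9 in control replicates 1, 2 and 3. Of 18917 genes tested, 41.9% passed the test (limma, Benjamini-Hochberg adjusted p under 0.05), 21.9% higher and 20.0% lower in loss of function trunks, and the groups did not overlap for 52.1%. The median log2 change of all genes tested was 0.00, with quartiles of -0.25 and 0.21. Nothing in the labels says how many embryos each library held, so p-values reflect variation among these libraries, which may be technical.

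All 38 Hox genes were tested, their lowest value in any library being 213 normalized reads. Their summed normalized read count was 74989 ± 467 in loss of function and 88159 ± 5100 in control trunks (SD, n = 3 each). In loss of function trunks 19 of the 38 fell and 9 rose, against 20.0% and 21.9% of all genes tested, the median of their log2 changes being -0.16. Of the changes, 5 exceeded 1.5-fold, all downward. The groups did not overlap for 21 genes in the downward and 11 in the upward direction, against 25.4% and 26.8% of all genes tested. The direction differed with the paralogue number. In groups 1 to 8, 18 of 21 genes fell and 1 rose (median -0.40 on the log2 scale). In groups 9 to 13, 8 of 17 rose and 1 fell. The median of groups 9 to 13 was 0.09, but -0.04 when libraries were scaled to the same total, where 3 of these genes rose and 6 fell. That scaling, chosen after seeing the data, moved the median of all genes to -0.14, and relative to it the median of groups 9 to 13 was 0.09. Across the 38 genes, which share libraries and in part neighbouring positions, Spearman's rho between paralogue number and log2 change was 0.63 and Pearson's r was 0.57. Within clusters rho was -0.3 over the 5 genes of cluster A, 0.69 over 15 in B, 0.48 over 11 in C and 0.64 over 7 in D. The medians did not climb to the posterior end, being 0.21 in group 11, -0.21 in group 12 and -0.12 in group 13. In bulk RNA, fewer cells that express a gene and less RNA per cell cannot be told apart.

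**Figure D1:**
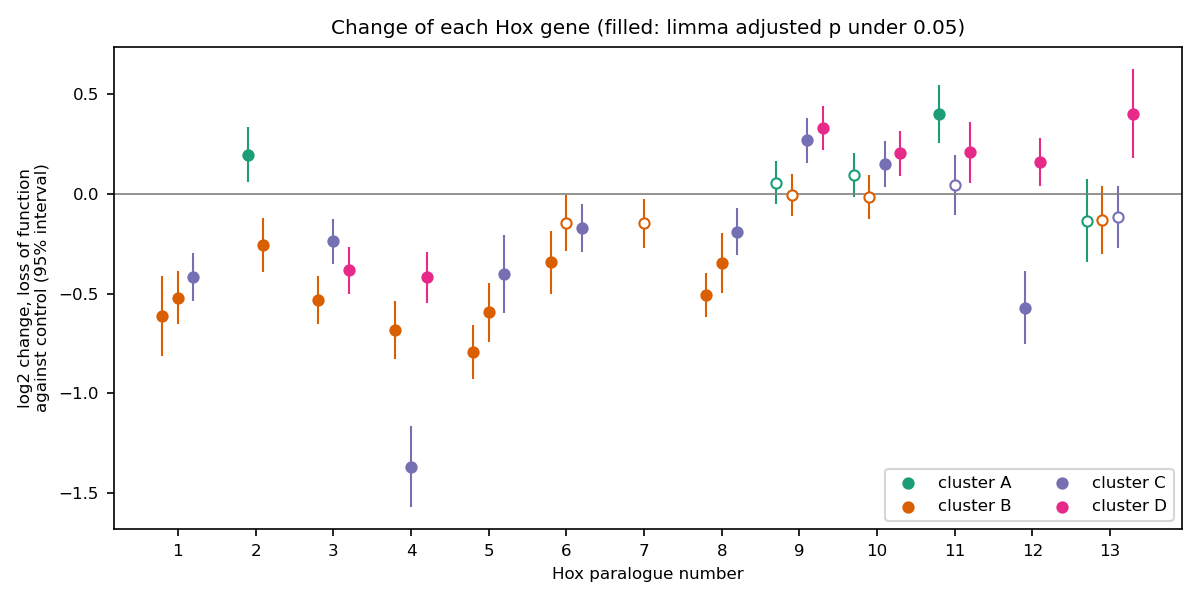
Log2 change of each of the 38 Hox genes (loss of function against control, vertical axis) by paralogue number (horizontal axis), coloured by cluster, with bars for the 95% interval from limma and filled points for an adjusted p under 0.05. In groups 1 to 8 a single point, hoxa2b, lies above 0, and in groups 9 to 13 the filled points lie above 0 except HOXC12. With libraries scaled to the same total, 3 of the 8 rises in groups 9 to 13 still passed.

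Paralogue group 1 acts early, and its members pattern the hindbrain. The gene hoxb1a, which in zebrafish specifies the hindbrain segment of the facial motor neurons, had 253, 278 and 326 normalized reads in loss of function replicates 1, 2 and 3, against 412, 446 and 449 in control replicates 1, 2 and 3. Every loss of function library lay below every control. It fell 1.52-fold (log2 change -0.61, SE 0.10, limma adjusted p = 7.68e-05). Its copy hoxb1b, which is induced early by retinoic acid, averaged 4267 ± 32.3 normalized reads in loss of function and 6149 ± 683 in control trunks (SD, n = 3 each; log2 change -0.52). For hoxc1a the means were 3989 ± 50.9 in loss of function and 5332 ± 462 in control trunks (log2 change -0.42). All 3 genes of this group fell.

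Group 2 divided. The gene hoxa2b, which gives the second pharyngeal arch its identity, had 984, 938 and 972 normalized reads in loss of function, against 782, 842 and 908 in control libraries. It rose by 0.20 on the log2 scale (SE 0.07, limma adjusted p = 0.0240), and the gap between the groups was narrow. The call was lost with libraries scaled to the same total (log2 change 0.06, adjusted p = 0.471) and when control replicate 1 (adjusted p = 0.0944), loss of function replicate 1 (0.0985) or loss of function replicate 3 (0.0793) was left out. HOXB2, whose orthologues act in the anterior hindbrain, fell by 0.26 on the log2 scale, with 1033 ± 40.4 normalized reads in loss of function and 1237 ± 92.9 in control trunks (SD, n = 3 each).

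All 6 genes of groups 3 and 4, which mark the posterior hindbrain and the neck and anterior trunk, fell. HOXC4 (ENSDARG00000070338) had the largest change of the 38 Hox genes. It had 398, 428 and 464 normalized reads in loss of function replicates 1, 2 and 3, against 1022, 1338 and 997 in control replicates 1, 2 and 3, so the groups lay far apart. This was a 2.60-fold decrease (log2 change -1.37, 95% interval -1.57 to -1.17, limma adjusted p = 2.05e-08). The same group's HOXB4 averaged 729 ± 23.9 normalized reads in loss of function and 1173 ± 101 in control trunks (log2 change -0.68), and HOXD4 averaged 1815 ± 51.1 in loss of function and 2432 ± 206 in control trunks (log2 change -0.42). Their intervals, -0.83 to -0.54 for HOXB4 and -0.55 to -0.29 for HOXD4, did not reach that of HOXC4, although the difference itself was not tested. In group 3, HOXB3 fell by 0.53, HOXD3 by 0.38 and hoxc3a by 0.24 on the log2 scale.

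The genes of groups 3 and 4 can share reads. In RefSeq's annotation of the assembly GRCz12tu, the span of hoxc3a holds 5 other Hox genes, hoxc4a among them, that of hoxb3a holds 3, that of hoxb1b 2 and that of hoxd3a 1. No source used here says how reads in such overlaps were assigned in build Zv9, and the libraries did not keep strand. Values of these genes and of those inside their spans are therefore uncertain to that extent. In the C cluster hoxc3a had 8331 ± 164 normalized reads in loss of function and 9846 ± 635 in control trunks (SD, n = 3 each), and its change of -0.24 was smaller in size than that of HOXC4.

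Group 5, whose domains begin in the anterior spinal cord and trunk, fell in 3 of 3 genes. One HOXB5 copy (ENSDARG00000013057) had 963, 986 and 984 normalized reads in loss of function, against 1530, 1825 and 1741 in control libraries. It fell 1.74-fold (log2 change -0.79, SE 0.06, limma adjusted p = 1.01e-07), the second largest decrease among Hox genes. The other HOXB5 copy (ENSDARG00000054030) had 1722, 1699 and 1758 in loss of function, against 2292, 2947 and 2621 in control libraries, and fell 1.52-fold (log2 change -0.59). Which ID is hoxb5a and which hoxb5b is not stated in the sources used here. HOXC5 fell by 0.40 on the log2 scale, with 322 ± 21.5 normalized reads in loss of function and 427 ± 49.1 in control trunks.

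Changes in groups 6 and 7 were smaller. HOXB6 fell by 0.34 on the log2 scale and HOXC6, whose mouse counterpart helps specify motor neurons of the forelimb, by 0.17. The copy hoxb6b had 1469, 1387 and 1458 normalized reads in loss of function, against 1426, 1750 and 1614 in control libraries, and its groups overlapped. Its log2 change of -0.15 (95% interval -0.29 to -0.00) was not called (limma adjusted p = 0.0916). For hoxb6b it was -0.22 (adjusted p = 0.00765) without control replicate 1 and -0.08 (0.346) without control replicate 2, and hoxb6b was called after quantile normalization (0.0435) and with libraries scaled to the same total (0.00232). HOXB7 had a log2 change of -0.15 that narrowly missed the threshold (limma adjusted p = 0.0510), with no overlap between the groups. HOXB7 passed under 9 of the 17 alternatives. Among these were quantile normalization (limma adjusted p = 0.0207), libraries scaled to the same total (0.0016) and edgeR (adjusted p = 0.0413). They also included leaving out control replicate 1 (limma adjusted p = 0.0428), control replicate 3 (0.0444) or loss of function replicate 3 (0.0373). HOXC6 no longer passed without control replicate 2 (adjusted p = 0.0653), loss of function replicate 2 (0.112) or loss of function replicate 3 (0.0771).

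Group 8 genes act in the thoracic trunk, and all 3 fell. HOXB8 (ENSDARG00000056027) had 4428, 4463 and 4209 normalized reads in loss of function, against 5861, 6567 and 6179 in control libraries. That was a 1.42-fold decrease (log2 change -0.51, SE 0.05, limma adjusted p = 1.31e-06). The copy hoxb8b fell by 0.35 and HOXC8, which in mice acts in forelimb motor neurons, by 0.19 on the log2 scale. HOXC8 lost its call without loss of function replicate 1 (limma adjusted p = 0.0609). The 4 pairs of copies in cluster B were hoxb1a and hoxb1b, the HOXB5 genes, HOXB6 and hoxb6b, and HOXB8 and hoxb8b. All 15 genes of the cluster had a log2 change below 0, so both members of each pair did too. The difference between copies was not tested.

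**Figure D2:**
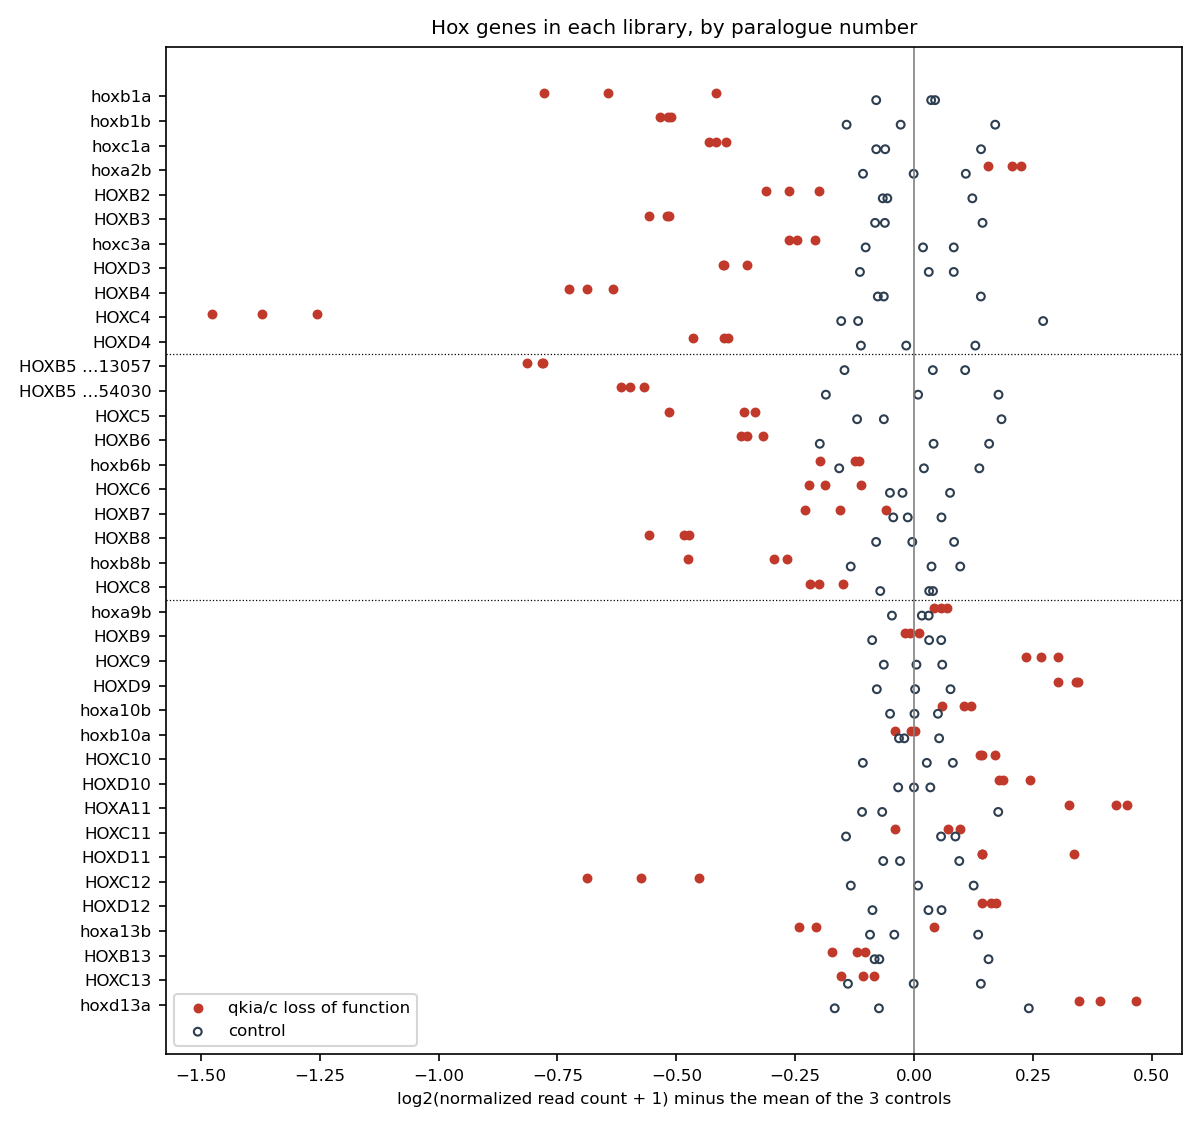
Values of the 38 Hox genes in each library, as log2(normalized read count + 1) minus the mean of the 3 controls (horizontal axis), ordered by paralogue number from top to bottom, with dotted lines after groups 4 and 8. Filled points are loss of function and open points control libraries. Filled points lie left of the open ones for 21 genes and right of them for 11, on the authors' scaling.

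Group 9 genes begin in the lower thoracic trunk, and 2 of 4 rose. HOXD9 (ENSDARG00000059274) had 2609, 2677 and 2683 normalized reads in loss of function replicates 1, 2 and 3, against 2002, 2118 and 2230 in control replicates 1, 2 and 3. Each loss of function library exceeded each control, and the log2 change was 0.33 (SE 0.05, limma adjusted p = 1.04e-04). HOXC9, which in mice confines forelimb motor neuron types to their level, rose by 0.27, with 2103 ± 47.9 normalized reads in loss of function and 1748 ± 74.4 in control trunks (SD, n = 3 each). Both still passed when libraries were scaled to the same total (log2 changes 0.19 for HOXD9 and 0.13 for HOXC9). HOXB9 had 6428 ± 64.5 normalized reads in loss of function and 6460 ± 342 in control trunks, a log2 change of -0.01 (95% interval -0.11 to 0.10, limma adjusted p = 0.938). For hoxa9b the log2 change was 0.06 (95% interval -0.05 to 0.16, limma adjusted p = 0.402).

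Group 10 genes, which in mice keep ribs from forming on lumbar vertebrae, rose in 2 of 4 cases. HOXD10 rose by a log2 change of 0.20 and HOXC10 by 0.15 (limma adjusted p = 0.0341), while hoxa10b (0.09) and hoxb10a (-0.02) did not pass. In group 11, HOXA11 had 2085, 1946 and 2116 normalized reads in loss of function, against 1482, 1439 and 1755 in control libraries. It rose 1.31-fold (log2 change 0.40, SE 0.07, limma adjusted p = 1.87e-04), and it passed with libraries scaled to the same total (log2 change 0.26). HOXD11 rose by 0.21, and HOXC11 (log2 change 0.04) was not called (limma adjusted p = 0.666). Group 11 acts at the sacral level and in the middle part of the limb in mice.

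Groups 12 and 13 are the last of each cluster and act in the tail, the cloaca and the distal fin. HOXC12 was the only gene of groups 9 to 13 that fell on the authors' scaling, with 337, 397 and 365 normalized reads in loss of function, against 546, 495 and 593 in control libraries. The log2 change was -0.57 (95% interval -0.75 to -0.39, limma adjusted p = 6.12e-05), a 1.49-fold decrease. Its paralogue HOXD12 rose by 0.16, and hoxd13a (ENSDARG00000059256) had 314, 305 and 331 normalized reads in loss of function, against 227, 213 and 283 in control libraries. That gene rose 1.31-fold (log2 change 0.40, SE 0.11, limma adjusted p = 0.00582), and its adjusted p was 0.0577 with libraries scaled to the same total. The other 3 group 13 genes, hoxa13b (-0.14), HOXB13 (-0.13) and HOXC13 (-0.12), were not called, and HOXC13 passed as a decrease without control replicate 2 (adjusted p = 0.0404). With libraries scaled to the same total, all 3 passed as decreases (limma adjusted p = 0.0375 for hoxa13b, 0.0116 for HOXB13 and 0.0105 for HOXC13).

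Several of the rises were near the threshold. Without control replicate 1, HOXC10 (limma adjusted p = 0.131), HOXD11 (0.0698), HOXD12 (0.117) and hoxa2b lost their calls, which left 5 of the 9 rises. Without loss of function replicate 3, HOXC10 (0.0889), HOXD11 (0.184), HOXD12 (0.100) and hoxa2b lost theirs, again leaving 5. HOXC10 and HOXD12 also lost theirs without loss of function replicate 1 (0.126 and 0.0875) or 2 (0.0877 and 0.118), and HOXD11 without control replicate 3 (0.0642).

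Within cluster D both genes of groups 3 and 4 were lower and all 5 genes of groups 9 to 13 higher. With libraries scaled to the same total, HOXD9 was the only one of these 5 that passed, and all 5 kept a positive log2 change. In cluster B 10 of 15 genes fell and 0 rose, and 5 did not pass, the 3 of groups 9 to 13 among them (the others being hoxb6b and HOXB7). Cluster C had 7 of 11 lower and 2 higher, and cluster A 2 of 5 higher and 0 lower, but 4 of the 5 measured genes of cluster A belong to groups 9 to 13. The median log2 change was 0.09 in cluster A, -0.35 in cluster B, -0.19 in cluster C and 0.20 in cluster D. Scaled to the same total, that of cluster A turned to -0.04 and that of cluster D was 0.06. On that scale 15 of 15 genes of cluster B fell, HOXB9, hoxb10a and HOXB13 included, with a median of -0.49.

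Ratios within a library do not depend on its scaling. In cluster D the summed reads of groups 9 to 13 divided by those of groups 1 to 4 gave 1.36, 1.33 and 1.33 in loss of function replicates 1, 2 and 3, against 0.830, 0.809 and 0.931 in control replicates 1, 2 and 3. The same ratio was 0.691, 0.686 and 0.680 in loss of function and 0.492, 0.447 and 0.515 in control libraries for cluster B. For cluster C it was 0.577, 0.561 and 0.545 in loss of function and 0.416, 0.379 and 0.441 in control libraries. In each of these 3 clusters the loss of function libraries lay above the controls. The ratio was not taken for cluster A, where hoxa2b is the only measured gene of groups 1 to 4. There hoxa2b changed by 0.20 on the log2 scale and the median of groups 9 to 13 was 0.07, so cluster A did not show this shift. Of the summed signal of all Hox genes, groups 9 to 13 took 38.3% ± 0.141 in loss of function and 30.2% ± 1.40 in control trunks (SD, n = 3 each). Groups 1 to 4 took 41.5% ± 0.330 in loss of function and 47.1% ± 1.31 in control trunks. On the authors' scaling, mean summed reads in loss of function were 1.08 times those of controls for groups 9 to 13. They were 0.75 times for groups 1 to 4 and 0.76 times for groups 5 to 8. The larger share of groups 9 to 13 thus came mostly with lower sums of the other groups. The percentages are shares of reads, which longer transcripts collect more of, not shares of molecules. In clusters B and C the sums of groups 1 to 4 include hoxb1b, HOXB3 and hoxc3a. The RefSeq spans of hoxb1b, hoxb3a and hoxc3a hold Hox genes of higher groups. Reads may therefore be shared between groups, and these ratios and shares are uncertain to that extent.

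**Figure D3:**
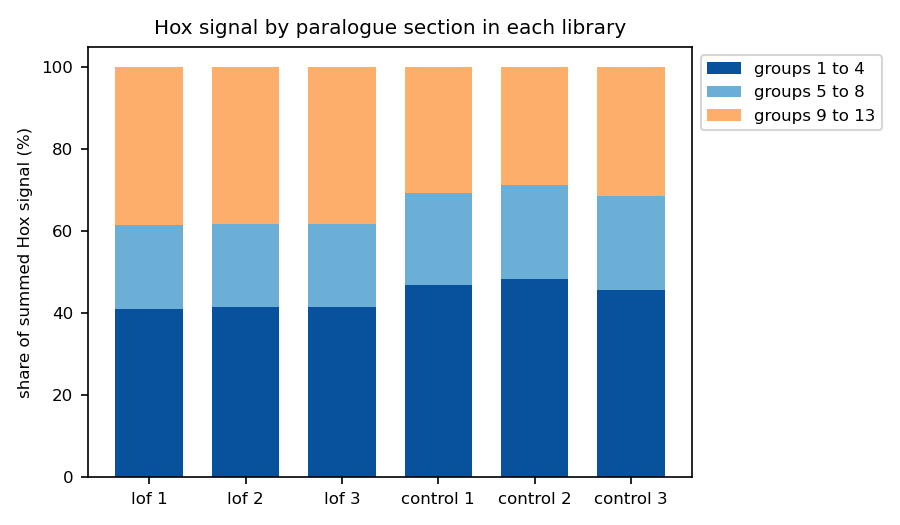
Share of the summed normalized reads of the 38 Hox genes (vertical axis, percent) that falls on paralogue groups 1 to 4, 5 to 8 and 9 to 13 in each library, with the loss of function (lof) libraries on the left and the control libraries on the right. Groups 9 to 13 take 38.1% to 38.4% in loss of function and 28.7% to 31.4% in control libraries.

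Controls also differed among themselves along the axis. Control replicate 2 was the highest control for 9 of 11 genes in groups 1 to 4 and for 9 of 10 in groups 5 to 8. Control replicate 3 was the highest for 11 of 17 in groups 9 to 13. The median coefficient of variation over Hox genes was 2.49% in loss of function and 7.82% in control libraries, and over all genes tested it was 5.48% in loss of function and 8.43% in control libraries. The median log2 change of groups 1 to 4 was -0.35 without control replicate 2 and -0.48 without control replicate 1, so it stayed below 0 in both cases.

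Cofactors were read next. Of 9 genes of the Meis, Pbx and Prep families, 5 fell, 0 rose and 4 did not pass (median log2 change -0.19). Among all genes tested, 20.0% fell and 21.9% rose. Meis proteins bind DNA beside Hox proteins, and meis3, which works with group 1 proteins in the zebrafish hindbrain, had 3812, 3889 and 3889 normalized reads in loss of function, against 4929, 6128 and 5223 in control libraries. It fell by 0.48 on the log2 scale (SE 0.06, limma adjusted p = 1.77e-05). The others that fell were meis2b (-0.38), one PKNOX1 gene (ENSDARG00000036542, -0.33), meis1a (-0.24) and MEIS1 (-0.19). The early cofactor pbx4 had a log2 change of -0.11 (95% interval -0.22 to 0.00) and was not called (limma adjusted p = 0.117).

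Of 21 regulators that act upstream of Hox genes, 4 rose and 5 fell (median 0.02), shares near the 21.9% and 20.0% of all genes. With libraries scaled to the same total 3 rose and 7 fell (median -0.12). ALDH1A2, the enzyme that makes retinoic acid in somites, had 3397, 3274 and 3358 normalized reads in loss of function, against 2132, 2033 and 2510 in control libraries (log2 change 0.59, SE 0.07, limma adjusted p = 2.68e-06). The groups lay well apart. CYP26A1, which breaks retinoic acid down, fell by 0.32, the receptor gene RARG (ENSDARG00000034117) by 0.71 and the receptor gene raraa by 0.28. The activator of trunk and tail Hox genes cdx4 rose by a log2 change of 0.40, with 1212 ± 55.8 normalized reads in loss of function and 931 ± 178 in control trunks. Its controls were uneven, with 814, 843 and 1136 in replicates 1, 2 and 3. Control replicate 3 thus lay just below the lowest loss of function library (1150). One FGF8 gene (ENSDARG00000003399) rose by 0.45, whereas egr2a (-2.14), a copy of the EGR2 gene, and the histone acetyltransferase gene KAT6A (-0.18) fell. The other copy, listed as EGR2 (ENSDARG00000042826), had a log2 change of -0.81 and was not called (limma adjusted p = 0.0601).

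Markers of the regions a trunk sample could hold moved in the same libraries, where 21.9% of all genes tested rose and 20.0% fell. Of 27 genes listed for the spinal cord, 16 fell and 0 rose (median log2 change -0.33). Among them were PAX2 (ENSDARG00000028148, -0.72), the neuronal RNA-binding gene ELAVL3 (-0.51), PAX3 (ENSDARG00000010192, -0.47) and the motor neuron gene LHX4 (-0.43). In bulk trunk RNA the change of a listed gene cannot be assigned to a particular tissue. Summed values of the 27 genes were 14473 to 14677 in loss of function and 17698 to 19471 in control libraries. Of 15 hindbrain and cranial motor genes, 6 fell and 2 rose, with the cranial motor neuron genes PHOX2A (-0.90) and TBX20 (-0.78) and the Notch modulator gene LFNG (-0.34) beside egr2a, while the anterior hindbrain gene GBX2 rose (0.30). With libraries scaled to the same total 0 rose and 10 of the 15 fell. Their summed values were 17894 to 18163 in loss of function and 19408 to 22513 in control libraries, but without LFNG, the most abundant, they were 9100 to 9482 in loss of function and 9316 to 10284 in control libraries, which overlap. Of 17 genes listed for the forebrain, midbrain and eye, 7 fell and 0 rose. EN2 (ENSDARG00000026599, -2.15) fell the most, with DMBX1 (ENSDARG00000009922, -0.65), PAX6 (-0.48) and PAX7 (-0.39) beside it. Sums of the list were 1749 to 1888 in loss of function and 2234 to 2337 in control libraries. As the head was cut away, these falls cannot be assigned to brain or eye tissue. Forebrain and eye genes of that list that did not pass included OTX2 (-0.03), EMX1 (0.43), EMX2 (0.17), emx3 (0.14) and rx3 (0.46), and 8 of its 25 genes, rx1, rx2 and both crx copies among them, were too low to be tested. None of these markers was at 0 in all libraries. Their part in the lower values of the anterior Hox genes was not tested.

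Of 15 tailbud and posterior mesoderm genes, 2 rose (FGF8 and cdx4, named above), 1 fell (the segmentation clock gene her1, -0.28) and 12 did not pass, with sums of 8538 to 8719 in loss of function and 7861 to 9671 in control libraries. Scaled to the same total, 2 of these rose and 4 fell (median -0.17). Of all genes tested, 21.9% rose and 20.0% fell on the authors' scaling. Of 11 genes listed for the pectoral fin bud, 4 rose and 2 fell (median -0.05, and 0.03 after quantile normalization). In bulk trunk RNA these changes cannot be assigned to the fin bud itself. Those that rose included and2 (0.54) and and1 (0.23), which encode actinodins of the first fin fibres. The other 2 that rose were one SHH gene (ENSDARG00000068567, 0.31) and msx1b (0.15), and those that fell were PRDM1 (-0.26) and SALL1 (ENSDARG00000074319, -0.17). Genes that act at the start of the fin bud did not pass, HAND2 at -0.30, FGF10 at -0.15 and fgf24 at -0.05, and TBX5, too low to be tested, had 1.00, 3.96 and 1.11 normalized reads in loss of function, against 8.81, 7.89 and 8.12 in control libraries. Scaled to the same total, 2 fin bud genes rose and 4 fell. Summed fin bud values were 14551 to 14663 in loss of function and 12876 to 13718 in control libraries. Without and1, and2 and that SHH gene they were 6432 to 6540 in loss of function and 6518 to 7256 in control libraries. The part of these values in the posterior Hox genes was not tested.

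**Figure D4:**
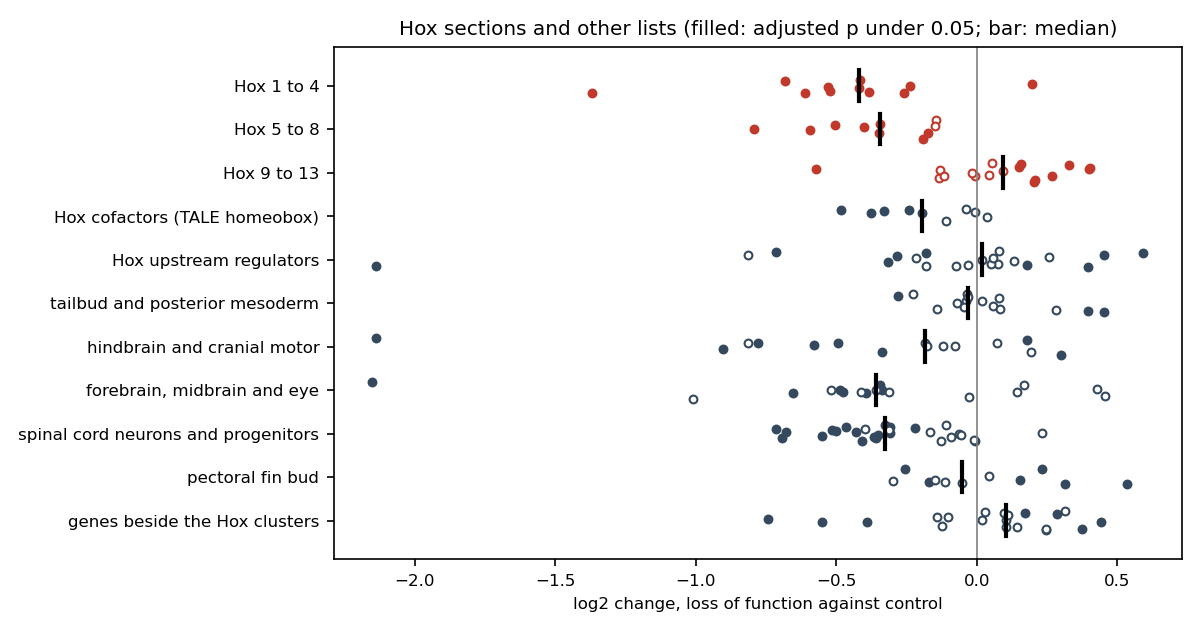
Log2 change (loss of function against control, horizontal axis) of each tested gene in the 3 sections of Hox genes (red) and in 8 other lists (dark), with filled points for a limma adjusted p under 0.05 and a bar at the median. The medians were -0.42, -0.35 and 0.09 for Hox groups 1 to 4, 5 to 8 and 9 to 13. They were -0.33 for spinal cord and 0.10 for the list of genes beside or near the clusters. The values of 0.09 and 0.10 turned to -0.04 and -0.03 with libraries scaled to the same total.

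Genes listed as lying beside or near Hox clusters were set against them. Of 20 tested, 5 rose, 3 fell and 12 did not pass (median 0.10), and of all genes 21.9% rose and 20.0% fell. On the scale of equal totals 4 rose and 6 fell (median -0.03). The homeobox gene EVX2, the neighbour of hoxd13a in RefSeq's annotation, had 169, 159 and 143 normalized reads in loss of function, against 201, 274 and 219 in control libraries. It fell by 0.55 on the log2 scale (SE 0.12, limma adjusted p = 0.00187), while all 5 genes of groups 9 to 13 in cluster D rose on the authors' scaling. EVX2 is also counted among the 27 genes listed for the spinal cord, of which 16 fell and 0 rose. The gene eve1, at the posterior end of a B cluster in RefSeq's annotation, was not called (log2 change -0.14, limma adjusted p = 0.297). CBX5, beside a C cluster there, rose by 0.25. Among those that passed, the largest changes in each direction were those of nfe2l1b (0.44) and JAZF1 (ENSDARG00000056793, -0.74). Others were snx11 (0.37), COPZ2 (0.28) and ATP5MC3 (ENSDARG00000017775, -0.39). RefSeq's annotation does not place nfe2l1b, JAZF1, snx11, COPZ2 or ATP5MC3 among the nearest protein-coding genes on each side of a Hox cluster. Some that it does place there, such as hnrnpa3 and srcap, were not in the list. The count and median therefore describe the list, not the direct neighbours.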

How the data were processed

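Poly(A) RNA was sequenced in 3 loss of function and 3 control libraries, with group and replicate number given by each sample's title. Each deposited gene value is a normalized signal, a read count over the size factor of its library. Dividing by the smallest step returned whole reads for 100% of deposited values (tolerance 0.001), with size factors of 0.897 to 1.13. The submitters' processing notes name build Zv9, SAMtools, the aligners STAR 2.4.0j and Bowtie 0.12.9, and DESeq 1.8.3 and HTSeq 0.5.3, with no roles given. Exon tables were not used, since exons are not paired with genes here. Libraries were not stranded, per the labels' protocols, and started from 0.7 µg of total RNA.

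A table of Ensembl IDs gave symbols for 18555 of 24789 genes (74.9%). Many are human names in capitals. RefSeq's GRCz12tu annotation was used for gene names and neighbours, with no coordinates.

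Changes were tested with limma 3.58.1 (R 4.3.3, variance trend on) on log2(value + 1), among genes that reached 10 in 3 or more libraries. Changes on this scale are understated for low genes. P-values are 2-sided and adjusted over all genes tested. Libraries of a group differed by more than sampling noise (chi-square per degree of freedom 1.97 to 12.3).

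Alternatives were other pseudocounts (0.5 and 5), filters and scalings, no trend, a replicate block and leaving out each library. Whole reads were also tested with edgeR 4.0.16 and DESeq2 1.42.0. The limma fit was tested on simulated data, with the same dispersion set for all genes. There it recovered 40.3% of 1.25-fold, 88.1% of 1.5-fold and 98.5% of 2-fold changes. Few genes changed in the simulation, with 160 calls among 18941 genes tested, against 7935 of 18917 in the data. Its adjusted threshold thus fell at smaller p-values, and these rates do not give the recovery in the data. A gene that was not called may still have changed by a small amount. Members and lists were chosen with earlier results of these data known. All members are named, and beyond them up to 4 genes per list with the smallest adjusted p. Others (MEIS1, pbx4, CYP26A1, raraa, cdx4, KAT6A, EGR2, GBX2, OTX2, EMX1, EMX2, emx3, rx1, rx2, rx3, crx, HAND2, FGF10, fgf24, TBX5, msx1b, SALL1, eve1, CBX5, EVX2 and JAZF1) were chosen after their values were seen, and 1 gene is not reported here. Tables were joined with Python 3.11.15 and pandas 2.3.3.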

Additional observations from a re-analysis of the deposited data

How the results depend on the processing

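Direction and call held under all 17 alternatives for 20 of 38 Hox genes, 17 lower and 3 higher (HOXA11, HOXC9 and HOXD9). Over single genes and alternatives, 585 of 646 values kept both, 35 lost the call, 18 gained it and 8 changed sign, all of these in genes that had not passed. After quantile normalization the medians were -0.47 for groups 1 to 4 and 0.047 for groups 9 to 13. Scaling to the same total, an alternative chosen after seeing the data, gave -0.56, -0.48 and -0.045 for groups 1 to 4, 5 to 8 and 9 to 13, with 3 Hox genes called higher and 26 lower, and hoxa9b (-0.084), hoxa10b (-0.045) and HOXC11 (-0.10) changed sign. By construction it counts the larger total of the loss of function libraries against every gene. Without the intensity trend 5 were called higher, and the cause was not tested. DESeq2 called 6 higher and 19 lower, and edgeR 9 and 20.

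Leaving out 1 library at a time gave 5 to 9 Hox genes higher and 18 to 21 lower, with medians of -0.48 to -0.35 for groups 1 to 4, -0.42 to -0.28 for groups 5 to 8 and 0.07 to 0.12 for groups 9 to 13. HOXC11 (-0.029 to 0.086, below 0 without control replicate 1), hoxb10a (-0.031 to 0.011, above 0 without control replicate 3) and HOXB9 (-0.050 to 0.023, above 0 without control replicate 2, control replicate 3 or loss of function replicate 3) changed sign. With the replicate block, 9 Hox genes were higher and 19 lower, and 7814 genes were called in all, against 7935 without it. Deviations of same-numbered libraries correlated by -0.07, 0.01 and -0.02, so no pairing by number was visible. Whether same-numbered libraries shared a clutch or batch is not settled by these values.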
